A study of Mus musculus with 6 samples.

Results

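The 5 genes *Rgl3*, *Syt8*, *Sardh*, *Trf* and *Acta1* were taken from 56884 genes counted in 6 RNA sequencing libraries of mouse intestinal organoid cells. They were chosen because their read counts stood far higher in the libraries labelled 4-OHT than in those labelled EtOH at both days sampled, and because they are not typical markers of enterocytes. They were thus chosen by their counts in these same libraries, which are given as a description, with no p for the 5 genes in that comparison. Organoids are epithelial cultures grown from the small intestine. All of them were Ythdf2 fl/fl and also carried Villin-CreERT2 and Lgr5-EGFP-IRES-CreERT2, in the EtOH groups as well as in the 4-OHT groups. CreERT2 is a Cre recombinase that becomes active once 4-hydroxytamoxifen (4-OHT) binds it. The *Villin* promoter drives it throughout the intestinal epithelium, and the *Lgr5* allele drives it, with EGFP, in stem cells. The organoids received 0.5 µM 4-OHT, or ethanol (EtOH) as the control, and Lgr5-GFP+ cells were sorted 4 or 6 days later. The groups were EtOH at day 6 (2 libraries), 4-OHT at day 6 (2 libraries), EtOH at day 4 (1 library) and 4-OHT at day 4 (1 library).

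The 5 genes work in different pathways. *Rgl3* encodes a guanine nucleotide exchange factor that binds active Ras-family GTPases and switches on the Ral GTPases, which steer vesicles to the plasma membrane through the exocyst complex. *Syt8* encodes a synaptotagmin, a membrane protein with C2 domains from a family that acts in regulated vesicle fusion together with SNARE proteins. *Sardh* encodes sarcosine dehydrogenase, a mitochondrial enzyme that turns sarcosine into glycine at the end of choline oxidation and is best known from liver and kidney. *Trf* encodes transferrin, the iron carrier of blood plasma, which is made mainly by the liver and is taken up by the transferrin receptor. *Acta1* encodes skeletal muscle alpha-actin, the actin of the thin filament in striated muscle.

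Gene counts per library ran from 14345379 to 21461835. *Ythdf2*, the floxed gene, goes against the labels: at day 6 it had 82.9 and 76.1 CPM (counts scaled to library size) with EtOH but 208 and 205 CPM with 4-OHT, and at day 4 it had 76.2 against 168 CPM. Counts per gene cannot show whether the floxed exons were present, so every direction below is that of the libraries labelled 4-OHT. *Lgr5*, the marker used for sorting, was present in every library at 209 to 369 CPM. Its day 6 log2 fold change was -0.45 (SE 0.19, adjusted p 0.413, edgeR quasi-likelihood, Benjamini-Hochberg). The labels do not say that replicates came from separate cultures, so p-values measure only the spread between these libraries, which may be technical.

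The DNA just before the start of these genes is shown first, since it differs among them in the short motifs it holds. RefSeq promoter windows, from a table built on GRCm38.p6, were placed on GRCm39 by exact match for 4 of the 5 genes, and the 250 bases before the start are printed from 5′ to 3′ on the strand of the gene. *Trf* had no entry. *Syt8* has 3 RefSeq starts, and the window printed, at the most upstream one, was chosen as the only one of its 3 with a motif match. Its start lies at -127 bases from that of the GENCODE canonical transcript, and the window at the canonical start itself held no match. Capitals mark matches to 8 motifs searched on both strands: TATAAA in core promoters, CCAAT bound by the factor NF-Y, GGGCGG bound by Sp1, the CArG box bound by serum response factor, TGANTCA bound by AP-1, GGAATG bound by TEAD factors, AGATAA bound by Gata4 and CTTTGA bound by TCF factors. The windows lie at chr9:21900750-21900999 on the minus strand (*Rgl3*), chr7:141988337-141988586 on the plus strand (*Syt8*), chr2:27137316-27137565 on the minus strand (*Sardh*) and chr8:124621515-124621764 on the minus strand (*Acta1*).
Rgl3: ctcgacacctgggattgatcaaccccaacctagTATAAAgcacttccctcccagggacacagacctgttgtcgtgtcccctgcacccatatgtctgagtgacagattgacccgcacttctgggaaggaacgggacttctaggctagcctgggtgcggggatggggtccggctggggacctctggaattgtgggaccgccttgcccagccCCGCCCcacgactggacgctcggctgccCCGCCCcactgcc
Syt8: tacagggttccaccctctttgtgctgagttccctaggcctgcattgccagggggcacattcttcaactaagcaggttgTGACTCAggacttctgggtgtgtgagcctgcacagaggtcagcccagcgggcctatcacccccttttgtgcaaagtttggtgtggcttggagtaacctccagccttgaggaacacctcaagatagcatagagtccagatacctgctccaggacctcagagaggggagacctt
Sardh: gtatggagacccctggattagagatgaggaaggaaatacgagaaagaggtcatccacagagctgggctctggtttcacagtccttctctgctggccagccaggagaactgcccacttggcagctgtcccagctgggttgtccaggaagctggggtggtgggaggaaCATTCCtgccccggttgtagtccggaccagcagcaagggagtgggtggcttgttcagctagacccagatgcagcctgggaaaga
Acta1: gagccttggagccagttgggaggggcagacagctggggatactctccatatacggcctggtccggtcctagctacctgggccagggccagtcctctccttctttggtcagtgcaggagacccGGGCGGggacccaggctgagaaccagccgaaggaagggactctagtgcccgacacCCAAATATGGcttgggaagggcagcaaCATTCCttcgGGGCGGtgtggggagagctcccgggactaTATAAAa

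The *Acta1* window held the most kinds of match. It had 1 CArG box at 73 to 64 bases before the start, TATAAA at 7 to 2 bases, GGGCGG at 128 to 123 and 36 to 31 bases, and GGAATG, on the opposite strand, at 46 to 41 bases. The RefSeq start of *Acta1* lies 172 bases downstream of the start of the GENCODE canonical transcript, so all of its matches lie past that canonical start. In the *Rgl3* window, TATAAA stood at 217 to 212 bases, and GGGCGG on the opposite strand at 41 to 36 and 13 to 8 bases. The RefSeq starts of *Rgl3* and *Sardh* lie 28 and 17 bases downstream of their canonical starts. The *Rgl3* match at 13 to 8 bases thus lies past its canonical start. *Syt8* had TGANTCA, as TGACTCA, at 172 to 166 bases, and *Sardh* had GGAATG on the opposite strand at 84 to 79 bases. None of these matches overlapped another, and no motif was found in all 4 windows. Of 12411 windows of the same length, 1.23% held a CArG box, 4.6% TGANTCA, 6.67% TATAAA, 10.9% GGAATG and 57.2% held GGGCGG on either strand. The motifs CCAAT (35.4% of windows), AGATAA (6.08%) and CTTTGA (10.6%) had no match in the 4 windows printed. A match describes the letters alone.

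All 5 genes were higher in every library labelled 4-OHT than in every EtOH library, with no overlap between the labels. The genes were chosen for large rises at both days, which favours such a separation, so it is a description. The share of all genes that separate in this way is not given here. *Rgl3* was nearly absent with EtOH and *Acta1* was not. In order of size, the ratio of the day 6 mean CPM was 88.1 for *Rgl3*, 54.4 for *Syt8*, 20.6 for *Sardh*, 13.0 for *Trf* and 10.9 for *Acta1*, and the order was the same at day 4. Even the lowest of the 3 libraries labelled 4-OHT stood 9.32 (*Trf*) to 54.3 (*Rgl3*) times above the highest of the 3 EtOH libraries. In these bulk samples, more cells that express a gene and more RNA per cell cannot be told apart.

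**Figure D1:**
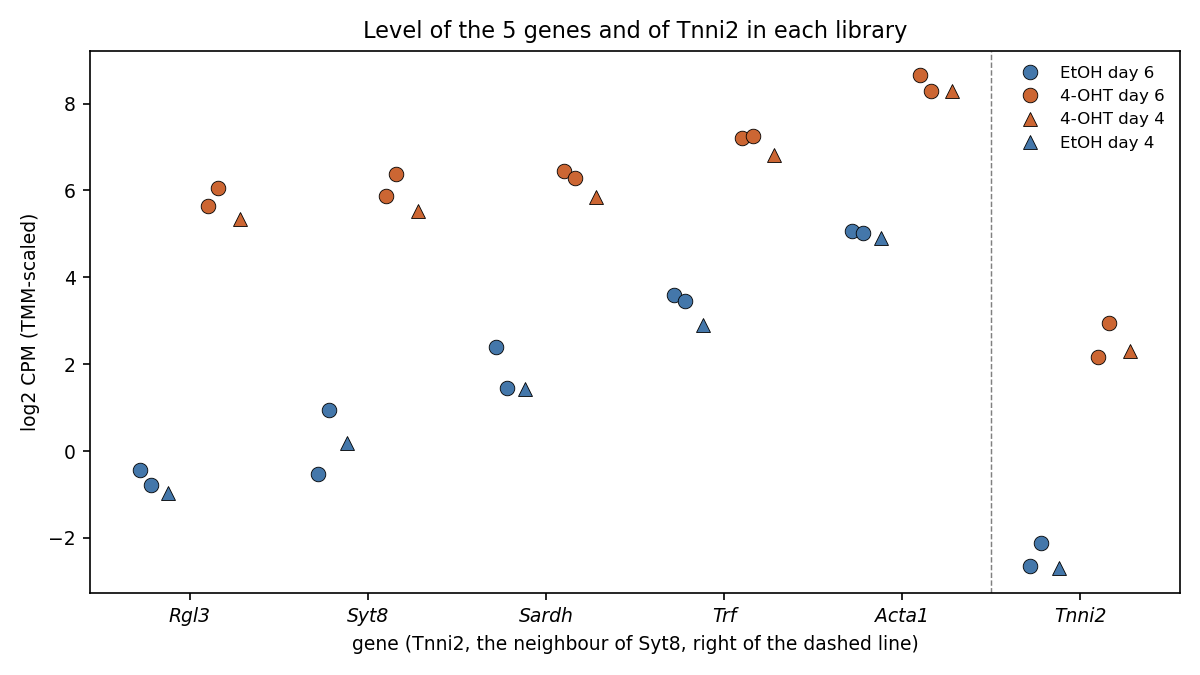
Level of each gene in each of the 6 libraries, as log2 CPM after TMM scaling (y axis); blue marks EtOH and orange 4-OHT, circles day 6 and triangles day 4, and *Tnni2*, the gene next to *Syt8*, is right of the dashed line. For each gene the 3 orange points lie above the 3 blue points, with *Rgl3* moving from 0.514 to 0.742 CPM up to 40.3 to 66.6 CPM.

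*Rgl3* (ENSMUSG00000040146; GRCm39 chromosome 9, 21880007 to 21900777, minus strand) had 14 and 10 reads with EtOH at day 6, against 1070 and 1243 with 4-OHT. At day 4 it had 10 reads with EtOH and 593 in the library labelled 4-OHT. The EtOH counts are so low that counting error alone leaves the day 4 ratio of 78.5 between 42.4 and 165 (exact 95% interval). In CPM the day 6 level was 0.661 ± 0.114 (SD, n = 2) with EtOH against 58.2 ± 11.9 (SD, n = 2) with 4-OHT. The log2 fold change was 6.44 (SE 0.31) at day 6 and 6.02 at day 4, where 1 library per label allows no test. The level per length of exon was 0.110 to 0.159 RPKM (CPM per kilobase of exon) with EtOH, above 14.9% to 24.1% of the protein-coding genes with reads in the same library. In the libraries labelled 4-OHT it was 8.64 to 14.3 RPKM, above 73.2% to 80.5% of such genes. *Rgl3* thus stood low among the detected genes with EtOH and well above their middle with 4-OHT.

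No other exchange factor of the family passed the test. *Ralgds*, which gave the family its name, had 47.4 and 47.6 CPM with EtOH and 55.6 and 53.8 CPM with 4-OHT at day 6, or 0.20 (SE 0.17) as a log2 fold change. *Rgl2* had 76.9 and 68.4 CPM against 64.8 and 65.6 CPM (-0.16, SE 0.16). *Rgl1* was scarce, with 1.54 and 0.638 CPM against 1.02 and 0.268 CPM (-0.72, SE 0.71). Their adjusted p were 0.81 (*Ralgds*), 0.858 (*Rgl2*) and 0.848 (*Rgl1*), from the edgeR quasi-likelihood fit after Benjamini-Hochberg correction. Per length of exon, *Rgl2* was the most abundant of the 4 with EtOH, at 13.3 to 15.8 RPKM, followed by *Ralgds* at 6.71 to 7.27 RPKM. In the libraries labelled 4-OHT, *Rgl3* (8.64 to 14.3 RPKM) overlapped *Rgl2* (13.3 to 14.3 RPKM) and lay above *Ralgds* (7.6 to 7.86 RPKM). Of 21 other genes of Ral signalling tested, among them the GTPases *Rala* and *Ralb*, the Ras-family GTPases upstream and the exocyst subunits that bind Ral, 0 rose and 0 fell at day 6. By comparison, 2.27% of the 14066 genes tested were called higher and 0.235% lower. At an unadjusted p under 0.05 there was 1 of the 21, and DESeq2 also called 0. Their median log2 fold change was 0.11, beside -0.01 for all genes, with 17 above 0 and 4 below. At day 4, 0 of 20 reached a 2-fold rise, where 4.63% of 12836 genes did, and over both days the edgeR fit again called 0 of the 21. That fit includes the day 6 libraries, so it is not a separate measurement.

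*Syt8* (ENSMUSG00000031098; chromosome 7, 141988587 to 141994133, plus strand) had 13 and 33 reads with EtOH at day 6 and 1260 and 1547 with 4-OHT. At day 4 there were 22 reads with EtOH and 683 with 4-OHT. The EtOH replicates of day 6 differed from each other by 2.78 times in CPM, the widest spread among the 5 genes. The mean went from 1.30 ± 0.867 CPM (SD, n = 2) to 70.8 ± 17.1 CPM (SD, n = 2), or 5.78 (SE 0.38) as a log2 fold change. Without EtOH replicate 2 this value was 6.66, and without EtOH replicate 1 it was 5.20. At day 4 the log2 fold change was 5.23 and the ratio 41.1 (exact 95% interval 26.9 to 66.0, counting error only). Per length, *Syt8* went from 0.364 to 1.01 RPKM with EtOH to 24.5 to 43.8 RPKM with 4-OHT, above 91.0% to 94.5% of detected protein-coding genes.

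Other synaptotagmins gave no call. *Syt7*, a calcium sensor of slow vesicle release, had 8.06 and 8.94 CPM with EtOH and 16.2 and 13.1 CPM with 4-OHT at day 6, or 0.78 (SE 0.26) as a log2 fold change (adjusted p 0.218, edgeR quasi-likelihood, Benjamini-Hochberg). Of 34 other synaptotagmins, related C2 proteins and SNARE partners in the files, 21 passed the filter on low counts, and 0 rose and 0 fell. An unadjusted p under 0.05 was seen for 3 of the 21, and DESeq2 also called 0. The median log2 fold change was 0.12, with 13 above 0 and 8 below. Over both days 0 of 20 were called. At day 4, 2 of 18 reached a 2-fold rise (4.63% of all genes did), *Syt13* (log2 fold change 1.52) and *Sytl1* (1.51), named after their values were seen.

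The gene next to *Syt8* moved with it. *Tnni2* (ENSMUSG00000031097; chromosome 7, 141995545 to 141998147), which encodes the fast skeletal muscle troponin I, starts 1411 bases beyond the end of *Syt8* on the same strand. It had 3 and 4 reads with EtOH at day 6, 96 and 144 with 4-OHT, and 3 against 73 at day 4. The libraries of the labels did not overlap, which is a description, since the share of all genes that separate in this way is not given here. In CPM the day 6 level was 0.196 ± 0.0517 (SD, n = 2) against 6.1 ± 2.3 (SD, n = 2). *Tnni2* rose at day 6 by 4.92 on the log2 scale (SE 0.60, adjusted p 0.00221, edgeR quasi-likelihood, Benjamini-Hochberg), and was higher in 3 of 3 libraries labelled 4-OHT. From the summed counts the ratio was 30.8 at day 6 (exact 95% interval 14.7 to 77.5) and 32.2 at day 4 (10.6 to 160), both intervals covering counting error only. Over both days the log2 fold change was 4.93 (SE 0.46). Per length, *Tnni2* reached 2.69 to 4.65 RPKM with 4-OHT, under the 24.5 to 43.8 RPKM of *Syt8*.

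No other neighbour was called. Of 33 protein-coding genes within 100 kb of the 5 genes, 20 could be tested at day 6, and *Tnni2* was the 1 gene that rose, while 0 fell. Among all genes tested, 2.27% were called higher and 0.235% lower. *Tnni2* passed the filter on low counts only through the libraries labelled 4-OHT, so its call is a description. The other 19 neighbours tested had log2 fold changes from -0.47 to 0.30. On the other side of *Syt8*, *Ctsd*, the lysosomal protease cathepsin D, lies 46811 bases away and changed by 0.30 (SE 0.16) on the log2 scale. Next to *Rgl3*, *Epor*, the erythropoietin receptor (5127 bases away), and *Odad3* (389 bases) had at most 7 reads in any library and were not tested. *Sardh* lies 4192 bases from *Dbh*, which had 0 reads in all 6 libraries, and 8655 bases from *Vav2* (0.20, SE 0.18). *Trf* lies 1852 bases from *Srprb*, a subunit of the signal recognition particle receptor (-0.13, SE 0.17), and 19317 bases from *Inhca*, which was not tested. *Nup133*, a nuclear pore gene lying 196 bases from *Acta1*, had a log2 value of -0.08 (SE 0.17), and *Ccsap*, 31552 bases away, one of 0.17 (SE 0.30). Adjusted p of the 5 tested genes named here besides *Tnni2* ran from 0.619 (*Ctsd*) to 0.949 (*Nup133*) in the edgeR quasi-likelihood fit after Benjamini-Hochberg correction.

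**Figure D2:**
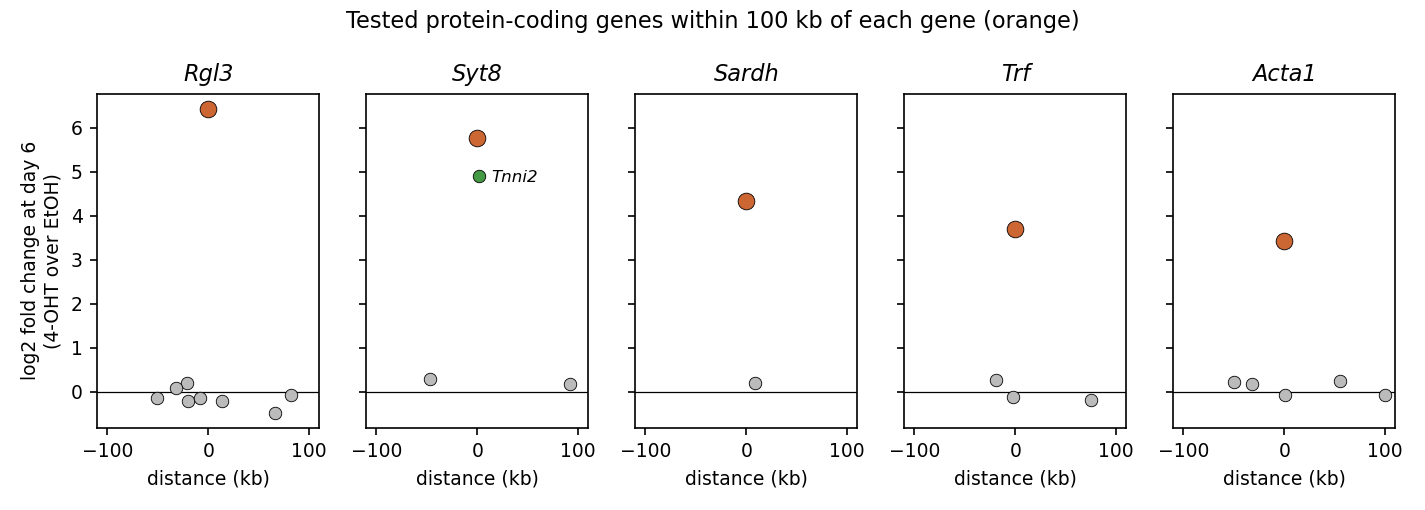
Day 6 log2 fold change (y axis, 4-OHT over EtOH) of the tested protein-coding genes against their distance in kb from each of the 5 genes, drawn in orange at 0. *Tnni2* (green) is the only neighbour past the adjusted p threshold of 0.05; the 19 others, in grey, lie between -0.47 and 0.30.

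*Sardh* (ENSMUSG00000009614; chromosome 2, 27078405 to 27143451, minus strand) had 100 and 47 reads with EtOH at day 6 and 1875 and 1453 with 4-OHT, and 52 against 854 at day 4. EtOH replicate 1 of day 6 stood above the other EtOH libraries, at 5.30 CPM against 2.73 and 2.67 CPM. The day 6 means were 4.01 ± 1.82 CPM (SD, n = 2) and 82.6 ± 6.67 CPM (SD, n = 2), which is 4.35 (SE 0.29) as a log2 fold change. At day 4 the log2 fold change was 4.39 and the ratio 21.7 (exact 95% interval 16.4 to 29.3, counting error only). Per length of exon, *Sardh* stood at 0.440 to 0.873 RPKM with EtOH and 9.57 to 14.4 RPKM with 4-OHT, a range that overlaps that of *Rgl3*. Of its exon bases, 3.1% overlap the antisense gene *Sardhos*, which had at most 3 reads in any library.

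No enzyme that works beside *Sardh* passed the test at day 6. *Chdh*, which begins choline oxidation, had 110 and 134 CPM with EtOH and 142 and 146 CPM with 4-OHT at day 6 (log2 fold change 0.24, SE 0.17, adjusted p 0.742, edgeR quasi-likelihood, Benjamini-Hochberg). *Dmgdh*, dimethylglycine dehydrogenase, makes the sarcosine that *Sardh* uses in this pathway and is its closest relative in the list. It had 0 reads in 5 libraries and 1 read in the day 4 library labelled 4-OHT. *Gnmt*, glycine N-methyltransferase, makes sarcosine from glycine and had a log2 fold change of 0.43 (SE 0.53, adjusted p 0.889, same edgeR fit). *Pipox*, a peroxisomal enzyme that also oxidizes sarcosine, had lower CPM with 4-OHT at both days. It had 22.4 and 21.1 CPM with EtOH against 14.8 and 10.7 CPM at day 6, and 17.0 against 8.09 CPM at day 4. Its day 6 log2 fold change of -0.77 (SE 0.24) had an adjusted p of 0.186, and its value over both days, -0.86 (SE 0.18), passed with an adjusted p of 0.0265 (edgeR quasi-likelihood, Benjamini-Hochberg). That call was lost without EtOH replicate 1 or 4-OHT replicate 2 of day 6 or either day 4 library (-0.86, -0.76, -0.77 and -0.77), and without the day term (-0.84).

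Of the 32 other genes of choline oxidation and folate one-carbon metabolism, 26 were tested at day 6, and 0 rose and 0 fell. An unadjusted p under 0.05 was found for 2 of the 26, and DESeq2 also called 0. The median log2 fold change was -0.09, with 9 above 0 and 17 below, so that the list lay slightly below the median of all genes. Over both days 0 rose and 1 fell (*Pipox*), where 3.68% of 14060 genes were higher and 0.718% lower. At day 4, 1 of 26 reached a 2-fold rise, *Gnmt* (log2 fold change 1.43), named after its value was seen, and 1 a 2-fold fall, *Pipox* (-1.06). Among all genes 4.63% reached such a rise and 1.4% such a fall.

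*Trf* (ENSMUSG00000032554; chromosome 9, 103081200 to 103107814, minus strand) was expressed with EtOH already, with 229 and 188 reads at day 6 and 146 at day 4. The libraries labelled 4-OHT had 3182 and 2828 reads at day 6 and 1664 at day 4. *Trf* had close replicates, at 11.5 ± 0.869 CPM (SD, n = 2) with EtOH against 150 ± 2.40 CPM (SD, n = 2) with 4-OHT. Its log2 fold change was 3.70 (SE 0.18) at day 6 and stayed between 3.62 and 3.78 over 8 alternatives, which include leaving out each library. At day 4 it was 3.90, a ratio of 15.1 (exact 95% interval 12.7 to 18.0, counting error only). Per length, *Trf* moved from 1.32 to 2.13 RPKM, above 37.5% to 42.4% of detected protein-coding genes, to 19.9 to 26.6 RPKM, above 88.4% to 90.4%. The antisense gene *Gm69171*, not analysed here, overlaps 2.58% of its exon bases, and the strand setting of the counts is not given in the sources used here.

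Of the 5 pathway lists, only iron handling had a call at day 6. That 1 call alone does not set it apart, but its number of genes with an unadjusted p under 0.05, given below, was the largest. *Slc40a1*, ferroportin, the exporter that passes iron out of the cell, had 11.4 and 23.9 CPM with EtOH and 55.8 and 85.0 CPM with 4-OHT, and 11.9 against 32.6 CPM at day 4. It rose at day 6 by 2.0 on the log2 scale (SE 0.33, adjusted p 0.0104, edgeR quasi-likelihood, Benjamini-Hochberg). Without EtOH replicate 1 of day 6 the value was 1.56 and no longer passed, and without EtOH replicate 2 it was 2.62. *Tfrc*, the receptor that takes up transferrin, had a log2 fold change of 0.05 (SE 0.17, adjusted p 0.973, same edgeR fit), with 375 to 445 CPM over the 6 libraries. *Ltf*, lactoferrin, the closest relative of transferrin here, was scarce: 0.053 and 0.406 CPM with EtOH, 1.4 and 1.18 CPM with 4-OHT at day 6, and 0.36 against 6.94 CPM at day 4. Of 27 iron genes tested, 1 rose and 0 fell, beside 2.27% and 0.235% of all genes. An unadjusted p under 0.05 (edgeR quasi-likelihood) was found for 8 of the 27, beside 1453 of 14066 over all genes. DESeq2 called 2. Whether the iron genes differ as a set was not tested. The median log2 fold change was 0.24, with 23 above 0 and 4 below.

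Over both days, 4 of the 27 iron genes rose and 0 fell, where 3.68% of all genes were higher. They were *Ltf* (log2 fold change 3.48, SE 0.56), *Slc40a1* (1.83, SE 0.27, adjusted p 0.00424), *Ncoa4* (0.83, SE 0.20, 0.0493) and *Heph* (0.75, SE 0.14, 0.0128), all from the edgeR quasi-likelihood fit after Benjamini-Hochberg correction. *Ltf* had at most 7 reads in any EtOH library and passed the filter on low counts only through the libraries labelled 4-OHT. Its value is thus a description with no p, though it is counted among the 4. *Heph*, hephaestin, is the ferroxidase that works with ferroportin, and *Ncoa4* brings ferritin to autophagy. *Heph* had 49.0 and 65.1 CPM with EtOH and 106 and 94.3 CPM with 4-OHT at day 6, and 50.9 against 77.5 CPM at day 4. Its call was lost without either day 4 library (0.81 each) or 4-OHT replicate 1 of day 6 (0.67). The calls of *Ltf* (2.50 each, and 4.28 without EtOH replicate 2 of day 6, where it held) and *Ncoa4* (0.80 each) were also lost without either day 4 library, and that of *Ncoa4* without EtOH replicate 1 (0.65) or 4-OHT replicate 2 (0.64) of day 6. Both were lost without the day term (3.42 and 0.83). At day 4, 3 of 26 iron genes reached a 2-fold rise, where 4.63% of all genes did: *Ltf* (3.91), *Slc40a1* (1.45) and *Slc46a1* (1.04), the last named after its value was seen.

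*Acta1* (ENSMUSG00000031972; chromosome 8, 124618501 to 124623661, minus strand) was not near absence with EtOH. It had 628 and 558 reads at day 6 and 579 at day 4, against 8619 and 5827 at day 6 and 4566 at day 4 with 4-OHT. In CPM the EtOH level was 32.8 ± 0.643 (SD, n = 2) and the 4-OHT level 357 ± 63.0 (SD, n = 2) at day 6, with 29.8 against 311 CPM at day 4. The log2 fold change was 3.44 (SE 0.19) at day 6 and 3.38 at day 4, where the ratio was 10.4 (exact 95% interval 9.57 to 11.4, counting error only). With EtOH, *Acta1* already stood at 8.01 to 8.96 RPKM, above 70.5% to 72.9% of detected protein-coding genes, and its EtOH level per length was the highest of the 5 genes. With 4-OHT it reached 83.6 to 108 RPKM, above 97.5% to 98.2%. The antisense gene *Gm29773* overlaps 5.63% of its exon bases and had at most 19 reads in any library.

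Among the actins, no other isoform was called. *Actb* and *Actg1*, the cytoplasmic actins of all cells, stayed the most abundant per length: 527 to 548 and 539 to 555 RPKM with EtOH, and 614 to 683 and 575 to 683 RPKM with 4-OHT. Their day 6 log2 fold changes were 0.28 (SE 0.20, adjusted p 0.754) and 0.20 (SE 0.20, adjusted p 0.856) in the edgeR quasi-likelihood fit after Benjamini-Hochberg correction. *Acta2*, smooth muscle alpha-actin, had 6, 1 and 5 reads in the EtOH libraries and 0, 1 and 4 with 4-OHT. *Actc1*, cardiac alpha-actin, had 1 read in the day 4 EtOH library, and *Actg2*, enteric smooth muscle actin, had 0 in all 6. Actin genes are similar in sequence, and reads that matched several genes were in no gene's count. Of 26 other actins, serum response factor cofactors and target genes, 20 were tested at day 6, and 0 rose and 0 fell. An unadjusted p under 0.05 was found for 1 of the 20, and DESeq2 also called 0. The median log2 fold change was 0.07, with 14 above 0 and 6 below. Over all genes, 2.27% were called higher at day 6. Over both days 0 of the 20 were called, where 3.68% of all genes were higher. At day 4, 1 of 19 reached a 2-fold rise (4.63% of all genes did), *Tpm2* (1.01), a tropomyosin named after its value was seen.

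**Figure D3:**
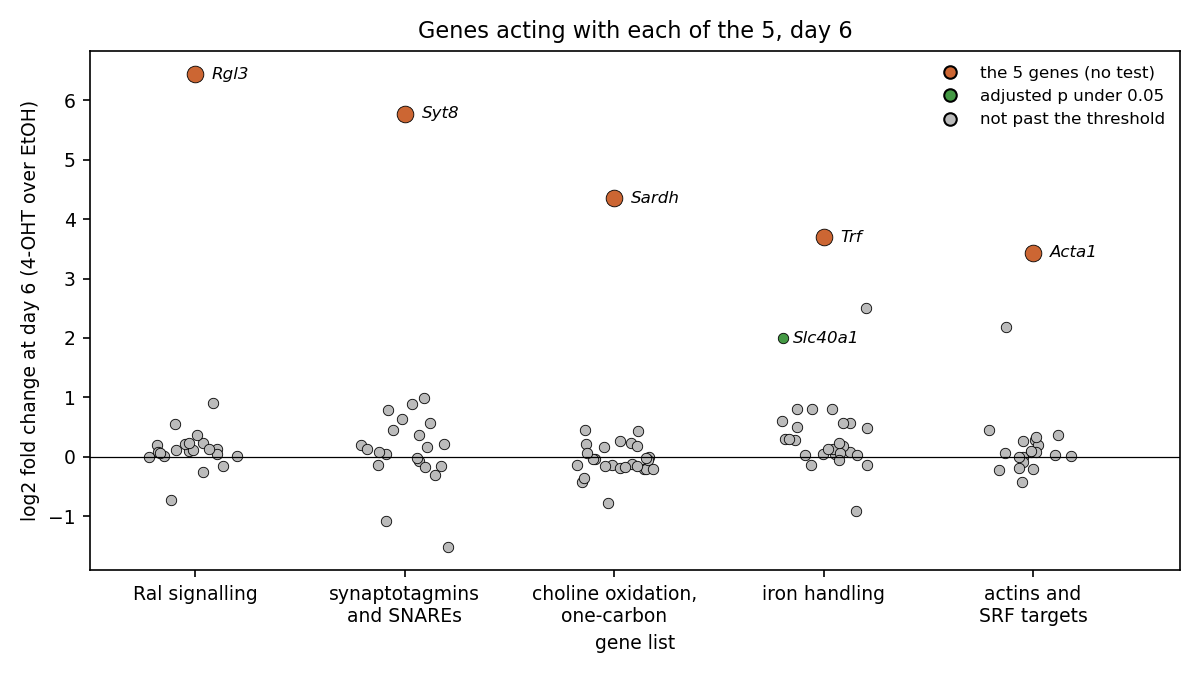
Day 6 log2 fold change (y axis, 4-OHT over EtOH) of each tested gene in the 5 gene lists, with the gene chosen in orange and the other genes in grey or, past an adjusted p of 0.05, green; the sideways spread has no meaning. *Slc40a1* is the only green point, and the medians of the other genes run from -0.09 (choline) to 0.24 (iron).

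Markers of the tissues best known for these genes were examined next. Of 14 skeletal muscle markers other than *Acta1*, *Myh1* and *Myl1* had 0 reads in all libraries, 3 were tested and *Tnni2* was the 1 that rose. As given above, *Tnni2* passed the filter only through the libraries labelled 4-OHT. The summed level of the 14 was 4.40 to 7.50 CPM with EtOH and 10.3 to 12.3 CPM with 4-OHT. Without *Tnni2* the ranges overlapped, at 4.24 to 7.35 and 4.56 to 6.80 CPM. Smooth muscle markers summed to 0.232 to 1.44 CPM with EtOH and 0.419 to 0.816 CPM with 4-OHT, and 0 of 8 had enough reads to be tested. For the liver, where *Trf* and *Sardh* are highly expressed, 10 hepatocyte markers summed to 35.5 and 23.2 CPM with EtOH and 55.3 and 33.5 CPM with 4-OHT at day 6, which overlap, and to 17.0 against 28.6 CPM at day 4. Of these 10, 3 could be tested, with a median log2 fold change of 1.36 at day 6 and 1.82 at day 4, where 2 of the 3 reached a 2-fold rise. *Fgb* and *Fgg*, the fibrinogen chains, had 0 reads in all libraries, and *Alb*, albumin, had 0.462 to 3.92 CPM with EtOH and 1.90 to 10.3 CPM with 4-OHT. Of the 3 tested, 1 rose: *Cyp2e1*, by 2.05 on the log2 scale (SE 0.41, adjusted p 0.0296, edgeR quasi-likelihood, Benjamini-Hochberg). That call was lost without EtOH replicate 1 (2.09), EtOH replicate 2 (2.01) or 4-OHT replicate 1 (1.20) of day 6. Over both days *Cyp2e1* rose by 2.34 (SE 0.37, adjusted p 0.00634, same edgeR test), a call kept under the 10 alternatives run (1.92 to 2.76), and at day 4 its log2 fold change was 3.09. Mesenchymal markers summed to 1.57 to 2.86 CPM with EtOH and 3.33 to 4.24 CPM with 4-OHT, and immune markers to 5.09 to 9.46 and 6.94 to 10.4 CPM.

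Markers of intestinal epithelial types also moved between the labels. Over all genes tested at day 6, 2.27% were called higher, 0.235% lower, and 1453 of 14066 had an unadjusted p under 0.05. Of 15 enterocyte markers, 10 rose at day 6 with a median log2 fold change of 1.88, and their summed level was 2040 to 2610 CPM with EtOH and 2750 to 6170 CPM with 4-OHT. All 10 tested genes of regenerative or fetal-like epithelium rose, with a median of 2.05 and sums of 125 to 176 and 490 to 550 CPM. Of stem cell markers 1 of 10 fell (*Olfm4*), with 3 above 0, 7 below and a median of -0.27. Over both days, 1 of the stem cell markers rose and 2 fell. Of goblet cell markers 2 of 8 rose at day 6, with 4 above 0, 4 below and a median of -0.09. Of tuft cell markers 1 of 5 fell at day 6 (*Dclk1*), while all 5 tested were below 0 with an unadjusted p under 0.05 and a median of -1.67. At day 4, 0 of 4 tuft cell markers reached a 2-fold fall (median -0.36), where 1.4% of all genes did. Paneth cell markers (7 tested) had 0 calls at day 6 by edgeR, 4 at an unadjusted p under 0.05 and a median of 0.80. Over both days 1 of them was called, *Ang4* (2.11, SE 0.41, adjusted p 0.0181, edgeR quasi-likelihood, Benjamini-Hochberg), and at day 4, 6 of 7 reached a 2-fold rise (median 1.97). Enteroendocrine markers (8 tested) had 0 calls at day 6, 1 at an unadjusted p under 0.05 and a median of 0.34, but 7 of 8 reached a 2-fold rise at day 4 (median 2.09), where 4.63% of all genes did. The part of these markers, and of the tissue markers above, in the rise of the 5 genes was not tested.

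Day 6 was then compared with day 4 across labels, a contrast that did not choose the genes. All 5 stood higher at day 6, by 0.51 (SE 0.22) on the log2 scale for *Rgl3*, 0.52 (SE 0.28) for *Syt8*, 0.54 (SE 0.21) for *Sardh*, 0.49 (SE 0.13) for *Trf* and 0.17 (SE 0.13) for *Acta1*. None passed, with adjusted p from 0.151 (*Trf*) to 0.62 (*Acta1*) in the edgeR quasi-likelihood fit after Benjamini-Hochberg correction, where 0.562% of 14060 genes did. At day 4 the library labelled 4-OHT had 0.656 (*Syt8*) to 0.870 (*Acta1*) of the day 6 mean CPM with 4-OHT, and the EtOH library 0.651 (*Trf*) to 0.906 (*Acta1*) of the day 6 mean with EtOH. The labels name no batch, and anything else that differed between the days cannot be told apart from time. The difference of the 4-OHT effect between days was 0.16 (SE 0.69) for *Rgl3*, 0.43 (SE 0.69) for *Syt8*, -0.09 (SE 0.48) for *Sardh*, -0.21 (SE 0.30) for *Trf* and 0.06 (SE 0.31) for *Acta1*, as day 6 minus day 4 on the log2 scale. The 5 genes were chosen for a large rise at both days, which leaves little room for a difference, and day 4 has 1 library per label, so these values are a description.

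**Figure D4:**
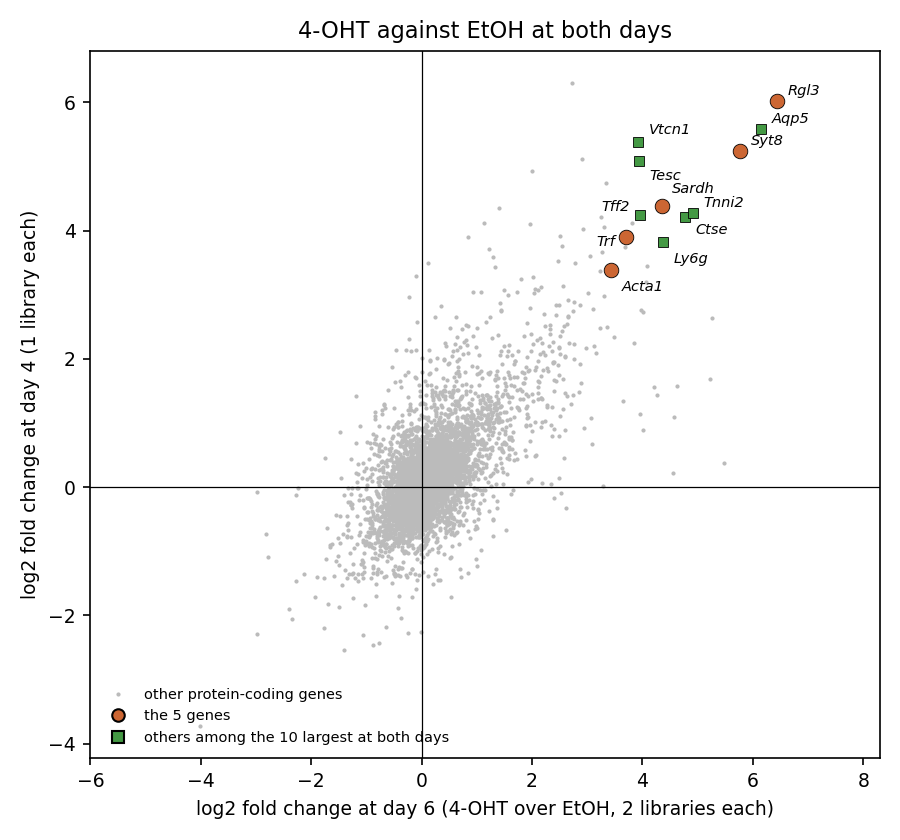
Log2 fold change of 4-OHT over EtOH at day 6 (x axis, 2 libraries each) and day 4 (y axis, 1 library each) for 11623 protein-coding genes, with the 5 genes in orange and the other genes among the 10 with the largest rise at both days in green. *Rgl3* and *Syt8* lie at the upper right; *Trf* and *Acta1* lie just outside those 10.

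When 11623 protein-coding genes were ordered by the smaller of their day 6 and day 4 log2 fold changes, *Rgl3* came in place 1 (6.02), *Syt8* in place 3 (5.23), *Sardh* in place 4 (4.35), *Trf* in place 12 (3.70) and *Acta1* in place 15 (3.38). The 5 are therefore not the 5 largest rises, and *Tnni2* came in place 5 (4.27). The genes whose log2 CPM followed theirs most closely over the 6 libraries were often the same ones. *Gper1*, a membrane estrogen receptor, was among the 3 closest to *Rgl3* (Pearson r 0.9987), *Sardh* (0.9967) and *Trf* (0.9962). *Proz*, which encodes protein Z of the coagulation system, was among the 3 closest to *Rgl3* (0.9983), *Sardh* (0.9965) and *Acta1* (0.9963). The kinase gene *Map2k4* was close to *Rgl3* (0.9988) and *Sardh* (0.9951), and *Rgl3* itself to *Trf* (0.9964) and *Acta1* (0.9946). For *Syt8* the closest were *Pdlim2* (0.9972), *Nfe2l2* (0.9965) and *Mir22hg* (0.9965). *5031439G07Rik* was closest to *Trf* (0.9981) and *Sccpdh* to *Acta1* (0.9966). These r come from 6 libraries that separate by label, out of 10435 genes compared, so any gene with tight replicates and a shift between labels scores high. They do not measure size: the day 6 log2 fold change was 0.48 for *Map2k4*, 2.31 for *Gper1* and 3.11 for *Proz*.

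Ythdf2 is a protein that binds RNA carrying N6-methyladenosine, a mark laid down within a short motif of which GGACT is a common form. The canonical transcripts of the 5 genes held 8 (*Rgl3*), 4 (*Syt8*), 5 (*Sardh*), 3 (*Trf*) and 4 (*Acta1*) copies of GGACT. Per kilobase this was 2.1, 2.66, 1.09, 1.17 and 2.43, beside a median of 1.047 and a 5 to 95% range of 0 to 2.403 over 12308 protein-coding genes. Per kilobase, *Syt8*, *Acta1* and *Rgl3* lay above 96.6%, 95.2% and 91.3% of those genes, whereas *Sardh* and *Trf* lay near the middle, above 53% and 57.8%. By number of copies the picture differed: *Rgl3* lay above 85.4%, *Sardh* above 61.1%, *Syt8* and *Acta1* above 48.6% each and *Trf* above 34%. The transcripts of *Syt8* and *Acta1* are short, longer than only 11.7% and 14.2% of those genes, which raises their values per kilobase. GC content was 57.7%, 57.3%, 57.7%, 57% and 52.5% for *Syt8*, *Acta1*, *Rgl3*, *Sardh* and *Trf*, beside a median of 50.44%. Whether any of these copies is methylated was not measured here.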

How the data were processed

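The authors deposited 1 table of raw read counts per gene for each of 6 libraries. Per the labels' protocols, poly-A RNA was captured on beads and copied from random hexamer primers. Per the submitters' processing notes, STAR and the mm39 build were used. Versions, the counting tool and the strand setting are not given in the sources used here. Reads given to no gene, such as unmapped or ambiguous ones (19.3% to 26.7% of entries), were left out. Symbols and positions came from GENCODE M 39 (GRCm39), which matched 56323 of 56884 identifiers holding 99.96% of counts. The table of RefSeq windows used for the 250 bases before gene starts names the build GRCm38.p6, and each window was placed on GRCm39 by exact match.

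Counts were tested with the quasi-likelihood test of edgeR 4.0.16 (R 4.3.3). TMM scaling was used, and low counts were filtered by filterByExpr (minimum count 10). Benjamini-Hochberg adjustment ran over all genes tested, with a threshold of 0.05. The day 6 comparison used its 4 libraries, and the comparison over both days used all 6 with day as a term. The day 4 log2 fold change used a prior count of 2 and was not tested. There a rise is at least 2-fold in genes averaging at least 1 CPM. CPM are TMM-scaled over the 6 libraries, RPKM use the exon length of each gene, and a mean ± SD is over 2 replicates. Replicates of day 6 differed by more than sampling noise (chi-square per degree of freedom 23.6 and 16.5), so neither pair is a repeat deposit of 1 library. This does not show that they came from separate cultures. The scripts were tested on simulated data.

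The 5 genes, the gene lists and the markers were chosen with earlier results of these data known. Genes named besides the 5 were called or related genes of each list, the nearest protein-coding neighbours, the 3 genes closest in pattern (averaging at least 5 CPM) and the 10 with the largest rise at both days. Of the listed genes, 1 (*Vamp7*) had no identifier in the files. As alternatives, DESeq2 1.42.0, median-of-ratios size factors, no filter, a replicate block, no day term, leaving out each library, and a prior count of 0.5 were tried. Further alternatives were added after the data were seen: leaving out each library for the difference between days and the alternatives for neighbours. Intervals on counts cover counting error only, at 95% confidence.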

Additional observations from a re-analysis of the deposited data

How the results depend on the processing

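The 5 genes kept their direction and stayed far above EtOH under every alternative run, with day 6 log2 fold changes of 6.22 to 6.63 (*Rgl3*), 5.20 to 6.66 (*Syt8*), 3.96 to 4.92 (*Sardh*), 3.62 to 3.78 (*Trf*) and 3.25 to 3.61 (*Acta1*). None of the 5 passed between days under any alternative run. Counts over all genes moved more. At day 6, 353 genes were called, and leaving out 1 library gave 145 (without EtOH replicate 1) to 454. With the replicate number as a block (replicate block) the count was 839. The labels do not say that numbers pair libraries, and the deviations of same-numbered libraries correlated at 0.266 over 2 groups of 2. Under the replicate block 6 iron genes, 1 choline gene and 1 actin gene were called, and the count of called neighbours stayed at 1. Over both days, 618 genes were called, 361 without the day term and 361 to 701 without 1 library. Between days, 79 genes were called, 182 without a filter, 318 by DESeq2 and 12 to 559 without 1 library. For the difference of the 4-OHT effect between days, edgeR called 0 genes (228 at an unadjusted p under 0.05), DESeq2 6, and leaving out 1 library gave 0 to 28. DESeq2 called 2 iron genes where edgeR called 1, and with all 6 libraries 4 iron genes and 1 choline gene were called. The cause was not tested. Where a library was left out at day 6, the lone library of its group was assumed to vary like the other group. Depth limits the ratios of genes with few EtOH reads, among them *Rgl3* (10 to 14 per library) and *Tnni2* (3 to 4).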

Other observations

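Besides *Rgl3*, *Syt8*, *Sardh* and *Tnni2*, the 10 protein-coding genes with the largest rise at both days held *Aqp5*, *Ctse*, *Tff2*, *Tesc*, *Vtcn1* and *Ly6g*. *Tff2*, a trefoil peptide of stomach mucus, had 5 and 21 reads with EtOH at day 6 and 182 and 268 with 4-OHT, and 5 against 100 at day 4. Its day 6 log2 fold change was 3.96 (SE 0.53), and the day 4 ratio was 26.5 (exact 95% interval 11.0 to 83.3). The size at day 6 depended on the EtOH libraries, at 3.22 without EtOH replicate 1 and 5.39 without EtOH replicate 2. *Ctse*, cathepsin E, an aspartic protease abundant in stomach, had 0 and 8 reads with EtOH at day 6 against 131 and 120. At day 4 it had 0 against 28 reads, at least 12.4-fold higher when the EtOH library is set at a floor of 3 counts. The exact lower 95% limit of the ratio, which also covers the counting error of the 28 reads, was 9.40. *Aqp5*, a water channel of glands, had 0 and 1 reads with EtOH and 67 and 32 with 4-OHT at day 6. At day 4, 0 reads stood against 75, at least 33.1-fold higher on the same floor, with an exact lower 95% limit of 26.3. *Tesc*, the calcium-binding protein tescalcin, had 17 and 15 reads with EtOH and 275 and 272 with 4-OHT at day 6, a log2 fold change of 3.94 (SE 0.35). *Vtcn1* and *Ly6g* had at most 5 reads in any EtOH library and 21 to 131 in the libraries labelled 4-OHT, so that their fitted fold changes depend on the prior count. These genes were picked by the size of their rise in the same comparison that chose the 5, so their values are a description with no p.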
